A study of Mus musculus with 15 samples.

Results

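The hypoxia response and glycolysis genes are 36 genes chosen by symbol: Hif1a with genes that regulate it or respond to it, and the genes of glucose uptake, glycolysis and lactate export. All 36 were among the 34432 genes listed in the 2 tables of normalized counts. Cells sense oxygen through prolyl hydroxylases, which mark the HIF-1α protein for degradation. When oxygen is low the protein accumulates and turns on genes for glucose uptake, glycolysis, pH control and vessel growth. HIF-1α is controlled mainly as a protein, so its mRNA level need not follow its activity. Many tumor cells use these genes with oxygen present, and Car9, which encodes the membrane carbonic anhydrase CA IX, is a widely used hypoxia marker. The question was whether the lower Car9 level after Prmt1 knockdown belonged to a wider change of these genes, and how the same genes behaved under inhibitors of the enzyme.

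CT26 is a mouse colon tumor line, here grown in culture, and 15 RNA-sequencing libraries fell into 2 experiments. In the knockdown experiment, 3 libraries came from cells with a control hairpin (shControl) and 3 from cells with a Prmt1 hairpin (shPrmt1), held in stable puromycin-selected lines and induced by DOX for 3 days. The labels do not say whether shControl cells received DOX, so the hairpin and DOX cannot be told apart. In the inhibitor experiment, wild-type cells were given vehicle, MS023 or GSK3368715 (3 libraries each). Both compounds inhibit type I protein arginine methyltransferases, the class of PRMT1, and were used at 6 µM for 48 hours against the same vehicle libraries. No oxygen level is given for any sample. The study's methods speak of independent experiments or biological replicates in general, and the labels do not say which these libraries were, so p-values measure the spread between these libraries.

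Libraries held 17284091 to 29233738 reads on genes in the knockdown experiment and 40119305 to 93697833 in the inhibitor experiment. Values are normalized counts, that is, gene counts divided by a size factor of the library. Differences are log2 fold changes of the normalized count + 1, tested by limma, and a gene was called at an adjusted p-value under 0.05 over all genes of the fit. A minimum of 10 normalized counts in 3 libraries was passed by 34 of the 36 genes in the knockdown experiment and by 35 in the inhibitor experiment. The 8 epithelial and colon markers summed to 541 to 1851 normalized counts per library, of which Krt18 had 378 to 1414, while Epcam was at 0 and Cdh1 had at most 2.29. The 4 fibroblast markers summed to 2340 to 22840, and the mesenchymal gene Vim had a mean of 68130 in shControl libraries. Immune markers summed to at most 30.6 and endothelial markers to at most 37.4 normalized counts in any library. The shPrmt1 2 library stood apart from the other shPrmt1 libraries (chi-square per degree of freedom 23.5 and 22.4, against 4.37 between shPrmt1 1 and 3). In the deeper inhibitor experiment, where this measure is larger for the same relative difference, vehicle 2 stood apart from the other vehicle libraries (78.4 and 45.7, against 20.9).

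Prmt1 itself was measured first. It had 5601, 5717 and 5620 normalized counts in shControl and 669, 761 and 683 in shPrmt1 libraries, so that the mean stood at 12.5% of control. Under the inhibitors, which act on the enzyme and not on its transcript, Prmt1 was not called (log2 fold changes -0.07 and -0.01).

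After Prmt1 knockdown, most of the hypoxia and glycolysis genes fell, while the Hif1a transcript was not called. Of 34 genes tested, 25 (73.5%) were called lower, none higher, and 9 were not called. Car9, whose fall set the question, is included in these counts and in those below. Over all 11485 genes tested, 7.17% were called lower and 7.5% higher. The median log2 fold change was -0.46 for the 34 genes and 0.00 for all genes, and 32 of the 34 lay below 0. In 26 genes (76.5%) every shPrmt1 library was below every shControl library, which held for 18.9% of all genes tested. In bulk RNA, fewer cells that express a gene and less RNA per cell cannot be told apart. Calls over all genes moved more than these with the library left out. Without shPrmt1 2, 28 members and 1291 of 11368 genes were called lower, and without shControl 1, the omission with the fewest calls, 17 members and 282 of 11405 genes were, against 25 and 823 with all libraries. Fibroblast and epithelial marker genes moved as well. The 4 fibroblast markers summed to 2340 to 2974 normalized counts in shControl and 3645 to 5530 in shPrmt1 libraries, and the 8 epithelial markers to 724 to 810 and 541 to 661; their part in the result was not tested.

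The bases upstream of the 5 genes with the largest falls are shown because HIF binds ACGTG and GCGTG in promoters. Each is the 250 bases before the RefSeq start (GRCm38.p6), 5′ to 3′ on the strand of the gene, with matches to either motif on either strand in capitals, and for Pdk1 the first of 2 windows.
Car9 (chr4:43506776-43507025, plus strand): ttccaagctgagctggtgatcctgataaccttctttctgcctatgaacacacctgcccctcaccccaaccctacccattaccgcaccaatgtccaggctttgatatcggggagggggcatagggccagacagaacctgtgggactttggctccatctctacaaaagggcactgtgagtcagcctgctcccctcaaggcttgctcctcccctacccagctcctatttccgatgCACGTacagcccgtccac
Ankrd37 (chr8:45999851-46000100, minus strand): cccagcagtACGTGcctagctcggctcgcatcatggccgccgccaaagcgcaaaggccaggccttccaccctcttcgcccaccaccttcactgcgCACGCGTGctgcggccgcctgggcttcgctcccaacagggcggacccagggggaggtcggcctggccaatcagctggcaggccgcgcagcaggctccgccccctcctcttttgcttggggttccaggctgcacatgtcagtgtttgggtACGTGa
Bnip3 (chr7:138909507-138909756, minus strand): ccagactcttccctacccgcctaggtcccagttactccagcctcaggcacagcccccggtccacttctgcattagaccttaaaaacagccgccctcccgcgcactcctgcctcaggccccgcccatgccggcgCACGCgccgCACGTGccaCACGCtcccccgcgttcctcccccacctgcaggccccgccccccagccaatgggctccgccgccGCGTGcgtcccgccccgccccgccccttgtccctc
Pdk1 (chr2:71872974-71873223, plus strand): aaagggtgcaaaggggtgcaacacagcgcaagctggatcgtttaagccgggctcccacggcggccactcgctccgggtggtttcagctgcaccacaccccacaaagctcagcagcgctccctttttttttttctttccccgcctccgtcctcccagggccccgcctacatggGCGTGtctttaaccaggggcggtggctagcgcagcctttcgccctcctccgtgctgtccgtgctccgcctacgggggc
Slc2a1 (chr4:119108495-119108744, plus strand): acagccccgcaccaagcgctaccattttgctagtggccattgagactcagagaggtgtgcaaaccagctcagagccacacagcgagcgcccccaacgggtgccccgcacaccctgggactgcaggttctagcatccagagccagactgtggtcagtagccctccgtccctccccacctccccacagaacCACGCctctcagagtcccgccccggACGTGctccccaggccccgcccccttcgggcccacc
Car9 held a single match, an ACGTG on the minus strand 18 to 14 bases before the start. Pdk1 held a single GCGTG 78 to 74 bases before it, and Slc2a1 held 1 match of each motif. Ankrd37 held 4 matches, the nearest 6 to 2 bases before the start. In Bnip3 the ACGTG lay inside the palindrome CACGTG, which overlaps the motif and which factors such as MYC and MAX also bind. Windows were found for 33 of the 36 genes. ACGTG was present in 63.6% of these genes, against 25.6% of genes tested in the knockdown experiment and 18.5% of all genes with a window. For GCGTG the shares were 63.6%, 51.1% and 30.9%. A gene counted if any of its windows held the motif. The mean number of windows per gene was 1.42, 1.27 and 1.22 in the same order, so more bases were searched per listed gene. Of the 24 genes with a window that were called lower after knockdown 17 held ACGTG, and of the 7 tested and not called 3 did, Hif1a among them. For GCGTG these were 15 of 24 and 5 of 7. Many of the genes were listed because they are known HIF targets, so the shares describe the list, and a match does not show binding.

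Car9 (ENSMUSG00000028463, chromosome 4 of mm10, 43506966 to 43513729, plus strand) was low in this experiment and fell furthest. shControl libraries had 114, 82.1 and 77.4 normalized counts, from 130, 114 and 70 reads, and shPrmt1 libraries 19.4, 2.42 and 7.15, from 17, 2 and 7 reads. The groups did not overlap, and the shPrmt1 values were spread widely. The mean went from 91.3 ± 20.2 to 9.67 ± 8.78 (SD, n = 3 each), or 10.6% of control. On the log2 scale this was -3.46 (95% interval -4.75 to -2.16, limma adjusted p = 0.00607). The fall of Car9 set the question, so these values describe its size and are no independent test. Car9 also passed the filter only through its shControl libraries. The size depended on single libraries, with -2.82 without shPrmt1 2 and -4.11 without shPrmt1 1, and the call was kept in both fits. Car12, which encodes another membrane carbonic anhydrase, was not called, with 225, 215 and 211 normalized counts against 197, 192 and 211 (95% interval of the log2 fold change -0.35 to 0.11).

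Hif1a (ENSMUSG00000021109, chromosome 12, 73901375 to 73947530, plus strand) encodes the oxygen-regulated subunit of HIF-1. Its shControl libraries had 5851, 6312 and 5684 normalized counts and its shPrmt1 libraries 5202, 7035 and 5453. The shPrmt1 values lay on both sides of the shControl values. The log2 fold change was -0.02 with a 95% interval of -0.28 to 0.23 (limma adjusted p = 0.902), so changes inside that interval are not excluded. Egln1 encodes PHD2, the main hydroxylase that marks HIF-1α, and is itself a HIF target. It had 2511, 2620 and 2467 normalized counts in shControl and 1428, 1625 and 1501 in shPrmt1 libraries, and fell to 59.9% of control (log2 fold change -0.74, SE 0.07, limma adjusted p = 0.000457). Egln3, a related hydroxylase, had 0, 2 and 1 reads in shControl and 0 in each shPrmt1 library, too few for a fold.

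**Figure D1:**
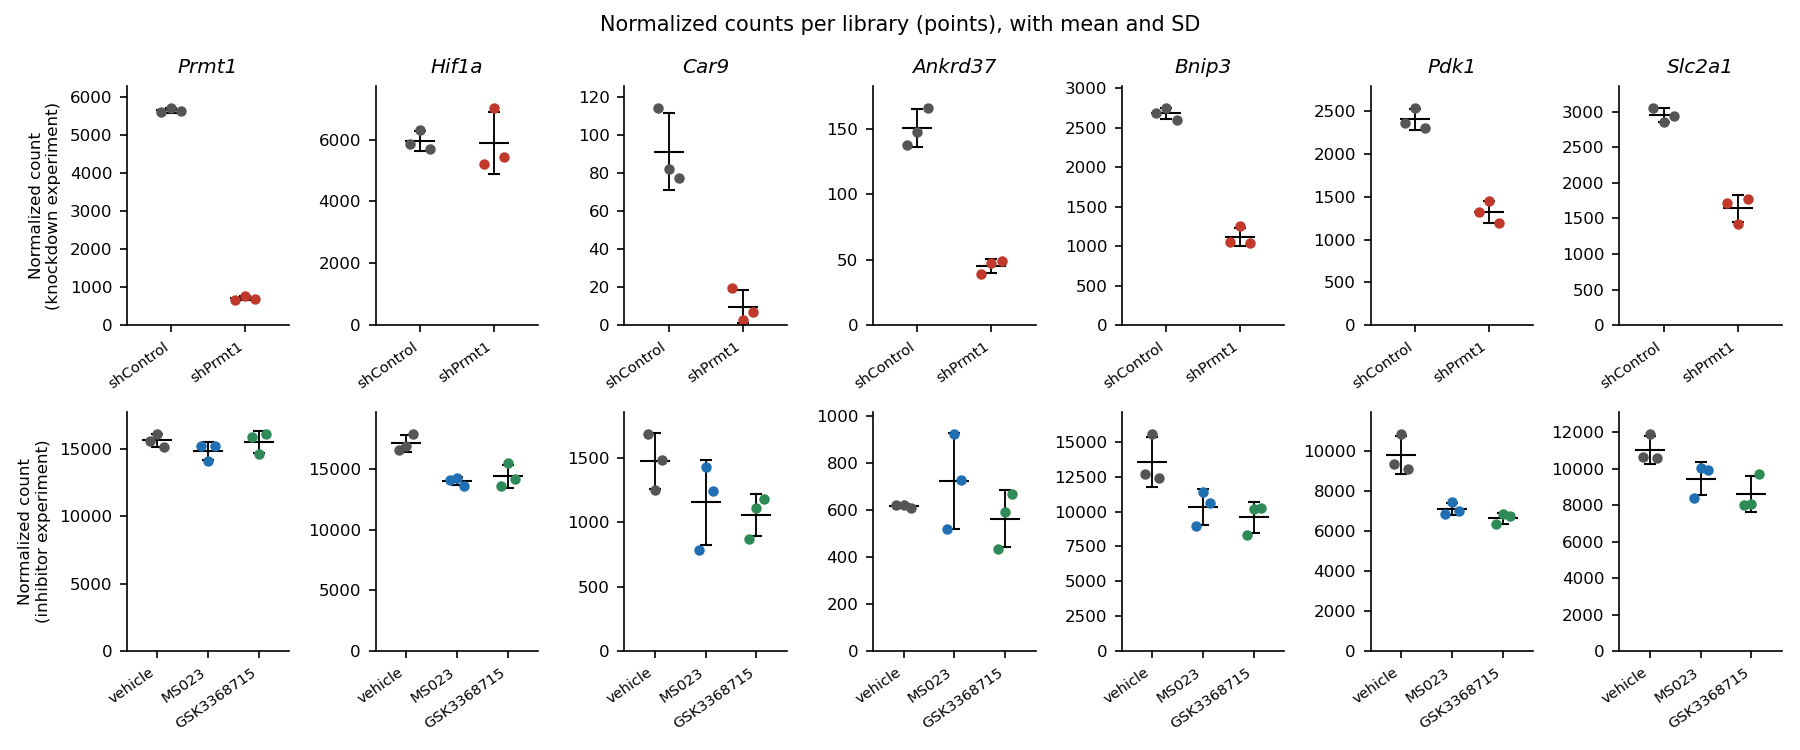
Normalized counts of Prmt1, Hif1a and the 5 members with the largest falls after knockdown in each library (points), with the mean and SD of each group of 3, for the knockdown and the inhibitor experiment. Car9, Ankrd37, Bnip3, Pdk1 and Slc2a1 do not overlap between shControl and shPrmt1 libraries, whereas Hif1a does.

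Ankrd37 (chromosome 8, 45996902 to 46005707, minus strand), an ankyrin repeat gene known as a HIF-1 target, had the next largest fall. Its values were 137, 148 and 166 normalized counts in shControl and 38.9, 47.3 and 49.0 in shPrmt1 libraries (log2 fold change -1.72, SE 0.16, limma adjusted p = 0.000422). The highest shPrmt1 library was far below the lowest shControl library. Its exons share 349 bases with Lrp2bp and 57 with Ufsp2 on the opposite strand, at means of 5.59 and 1118 normalized counts, and whether reads were counted by strand is not given in the sources used here.

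All 3 genes of mitophagy and mitochondria fell. Bnip3 (chromosome 7, 138890836 to 138909519, minus strand), a mitophagy receptor, had 2684, 2751 and 2601 normalized counts in shControl and 1053, 1252 and 1041 in shPrmt1 libraries. It stood at 41.6% of control (log2 fold change -1.27, SE 0.08, limma adjusted p = 9.96e-05). The related receptor gene Bnip3l fell less (log2 fold change -0.48, SE 0.06, limma adjusted p = 0.00236). Higd1a, a hypoxia-induced gene of the inner mitochondrial membrane, went from 1357, 1372 and 1479 to 1040, 795 and 906 (log2 fold change -0.63, SE 0.10, limma adjusted p = 0.00603). In each of the 3 genes all shPrmt1 libraries were below all shControl libraries.

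Other HIF targets were mixed. Mxi1, a MAX partner that opposes MYC, had 1092, 1171 and 1084 normalized counts in shControl and 653, 760 and 682 in shPrmt1 libraries (log2 fold change -0.68, SE 0.08, limma adjusted p = 0.00149). Ddit4 (REDD1), an inhibitor of mTORC1 signaling, had 1043, 1001 and 1045 against 681, 578 and 666 (log2 fold change -0.68, SE 0.08, limma adjusted p = 0.00158). Both groups were separate, at 62.6% and 62.3% of control. Ndrg1, a stress-response gene, was not called (-0.03, 95% interval -0.16 to 0.10). Nor was the histone demethylase gene Kdm3a (-0.17, -0.43 to 0.09), which was called lower without shPrmt1 2.

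Both collagen prolyl 4-hydroxylase subunit genes fell, P4ha2 by 0.52 and P4ha1 by 0.26 on the log2 scale. The call of P4ha1 (limma adjusted p = 0.0315) was lost when any single library other than shPrmt1 2 was left out, with log2 fold changes of -0.30 to -0.22. That call was also lost with no trend. Vegfa, the main growth factor for blood vessels, fell by 0.40 (limma adjusted p = 0.0149). Adm, the gene of the vasodilator adrenomedullin, had 1 read in shControl 3 and 0 in the other 5 libraries, so no fold is given.

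**Figure D2:**
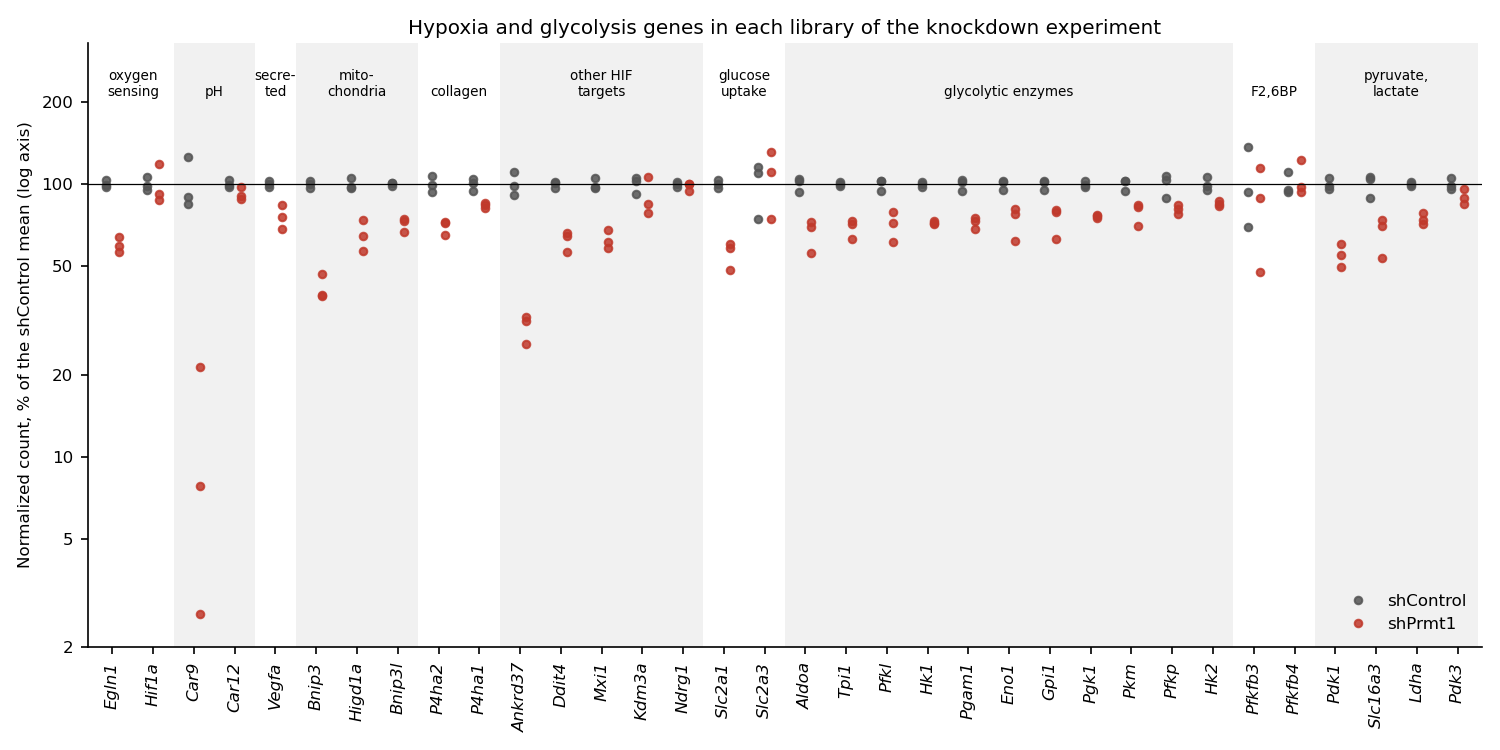
Normalized count of each of the 34 tested members in each library of the knockdown experiment, as a percentage of the mean of the 3 shControl libraries (log axis), with genes grouped by role. The shPrmt1 points lie below all shControl points in 26 genes, among them all 11 glycolytic enzymes.

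The path from glucose to lactate was lower at most steps. At glucose entry, Slc2a1 (GLUT1; chromosome 4, 119108711 to 119137983, plus strand) had 3057, 2855 and 2944 normalized counts in shControl and 1723, 1428 and 1775 in shPrmt1 libraries. It fell to 55.6% of control without overlap (log2 fold change -0.85, SE 0.09, limma adjusted p = 0.000788). Slc2a3 (GLUT3), at 51.9, 54.7 and 35.4 against 52.6, 35.2 and 62.3, overlapped and was not called (95% interval -0.55 to 0.68).

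Of 11 glycolytic enzymes 10 were called lower, and in all 11 the groups did not overlap. The median log2 fold change of the enzymes was -0.45. Among the early steps, the hexokinases Hk1 and Hk2 had -0.47 and -0.24, the isomerase Gpi1 -0.44, the phosphofructokinase Pfkl -0.51 and the aldolase Aldoa -0.60. Pfkp, another phosphofructokinase, was not called (-0.30, limma adjusted p = 0.0665) but was without shPrmt1 2, with the replicate block and by DESeq2. Among the later steps, the triosephosphate isomerase Tpi1 had -0.54, the phosphoglycerate kinase Pgk1 -0.39, the mutase Pgam1 -0.47, the enolase Eno1 -0.45 and the pyruvate kinase Pkm -0.35. The called enzymes stood between 66.1% (Aldoa) and 84.7% (Hk2) of control.

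Some of these calls were close to the threshold. The call of Hk2 (limma adjusted p = 0.0417) was lost when any library other than shPrmt1 2 was left out, while its log2 fold change stayed between -0.27 and -0.19. That call was also lost with no filter, equal upper quartiles, equal totals or no trend. Eno1, Gpi1, Pkm, Vegfa and Slc16a3 were not called without shControl 1 or without shControl 3, nor Pfkl without shControl 1. With no trend, Eno1, Gpi1 and Pkm were not called either. The shPrmt1 2 library was the lowest of its group in 9 of the 11 enzymes and in 18 of the 25 called genes. How often it was lowest over all genes was not counted. Eno1 has near-identical copies that can share its reads, Eno1b and Gm4735, at means of 16729 and 19140 normalized counts. Summed with its 4 copies it had a log2 fold change of -0.39 (limma adjusted p = 0.00595). Pfkp shares 748 exon bases with Pitrm1 on the opposite strand, and Aldoa is listed in 2 rows, of which ENSMUSG00000030695 was used. The values of its other row are not reported here.

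Pfkfb3 and Pfkfb4, which set the level of the phosphofructokinase activator fructose-2,6-bisphosphate, were not called (-0.28, 95% interval -1.14 to 0.58, and 0.06, -0.25 to 0.36). At the lactate end, Ldha (lactate dehydrogenase) fell by 0.43 (SE 0.05, limma adjusted p = 0.00194). Slc16a3 (MCT4), which exports lactate, had 1847, 1539 and 1818 normalized counts in shControl and 1217, 932 and 1282 in shPrmt1 libraries (log2 fold change -0.61, SE 0.13, limma adjusted p = 0.0169). Pdk1 and Pdk3 encode kinases that switch off pyruvate dehydrogenase and so keep pyruvate out of the mitochondria. Pdk1 (chromosome 2, 71873224 to 71903858, plus strand) went from 2365, 2540 and 2306 to 1321, 1448 and 1190, 54.9% of control (log2 fold change -0.87, SE 0.09, limma adjusted p = 0.000541). Ldha, Slc16a3 and Pdk1 were separate between the groups. Pdk3 overlapped and was not called (-0.16, limma adjusted p = 0.204), and was called lower without shPrmt1 2.

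A further list held 66 genes of the pathway, of which 50 were tested here. In it 11 (22%) were called lower, against 7.17% of all genes, and 3 higher, and its median log2 fold change was -0.07. Of its other HIF targets 8 of 19 were lower, including the repressor gene Bhlhe40 (-0.69), the phosphoglucomutase Pgm1 (-0.60) and the demethylase Kdm4b (-0.59). Outside that role, the enolase Eno2 had -1.16 (limma adjusted p = 0.000906) and the bicarbonate transporter Slc4a8 -2.30 (limma adjusted p = 0.0478). The higher genes were Arnt2, a partner of HIF-family factors (1.97), the cytosolic carbonic anhydrase Car13 (0.85) and the heme oxygenase Hmox1 (0.55). None of 7 HIF subunits and regulators was lower. Gapdh, a glycolytic enzyme with many near-identical copies, was not called (-0.46, limma adjusted p = 0.0745), and summed with 91 copies it was (-0.42, limma adjusted p = 0.0249).

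**Figure D3:**
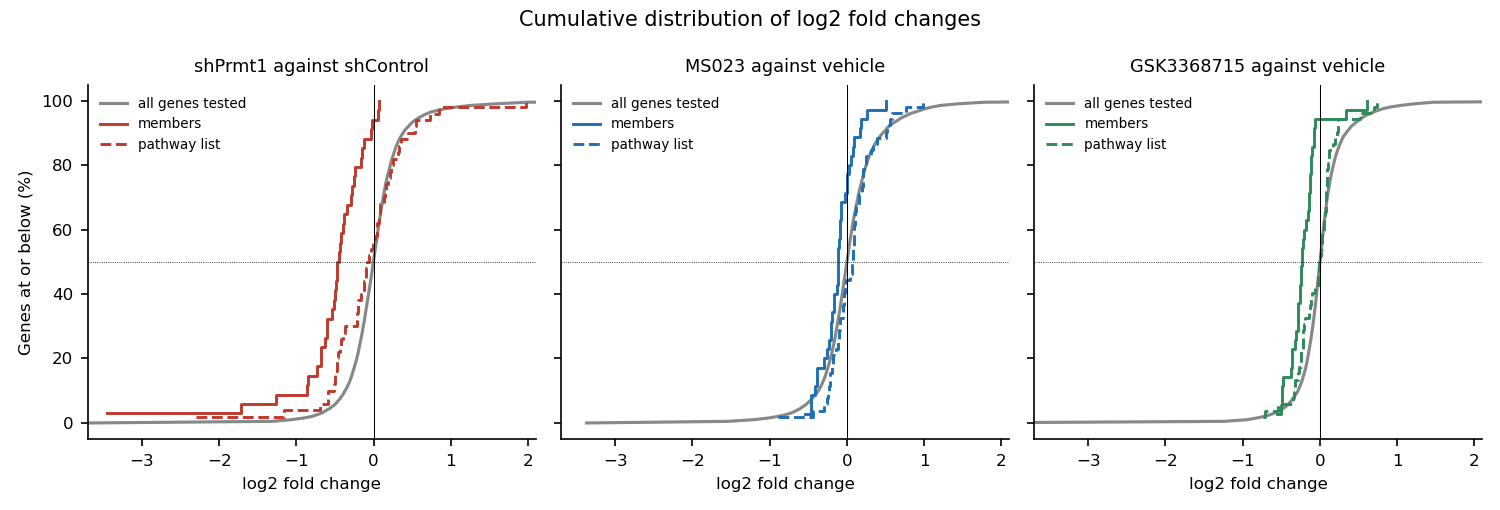
Cumulative percentage of genes at or below each log2 fold change for all genes tested, the members and the pathway list, in each comparison with controls. The members' median was -0.46 after knockdown, -0.11 with MS023 and -0.23 with GSK3368715, against 0.00 for all genes in each.

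Under the inhibitors fewer of the genes were called than after knockdown, and the median lay nearer 0, at -0.11 with MS023 (-0.07 without MS023 1) and -0.23 with GSK3368715. Of the genes called here, Hk2 with MS023, Pfkp with GSK3368715, and Car12, Hif1a and Pfkfb4 with both compounds had larger log2 fold changes than after knockdown, and the difference between the experiments was not tested. With MS023, 6 of 35 tested genes (17.1%) were called lower, close under the main scaling to the 14.1% among all 13014 genes tested. A further 1 was called higher, where 13.7% of all genes were. Scaled to equal upper quartiles, 6 members were again called lower and 1 higher, but 1080 of 13011 genes lower and 2084 higher. Every MS023 library was below every vehicle library in 14 genes, 22.1% being the share among all genes. With GSK3368715, 7 of 35 were called lower and 1 higher, where 4.47% and 5.16% of all genes were. Every GSK3368715 library was below every vehicle library in 19 genes, against 14.1% of all genes. Log2 fold changes were below 0 for 25 of the 35 genes with MS023 and for 33 with GSK3368715. Both comparisons use the same vehicle libraries. Vehicle 2, which stood apart, was also the vehicle library with the highest levels of the genes called lower after knockdown (median 107.4% of the vehicle mean, against 97.3% and 93.5%). Without it 7 members were called with each compound, Vegfa being called lower with both and Bnip3 with neither. The 8 calls with GSK3368715 became 3 without GSK3368715 1, 10 without GSK3368715 3 and 15 by DESeq2. Marker genes moved here too. The fibroblast markers summed to 20970 to 21600 normalized counts in vehicle, 14080 to 18400 in MS023 and 20400 to 22840 in GSK3368715 libraries, and the epithelial and colon markers to 1245 to 1415, 1760 to 1851 and 1408 to 1609; their part in the results was not tested.

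**Figure D4:**
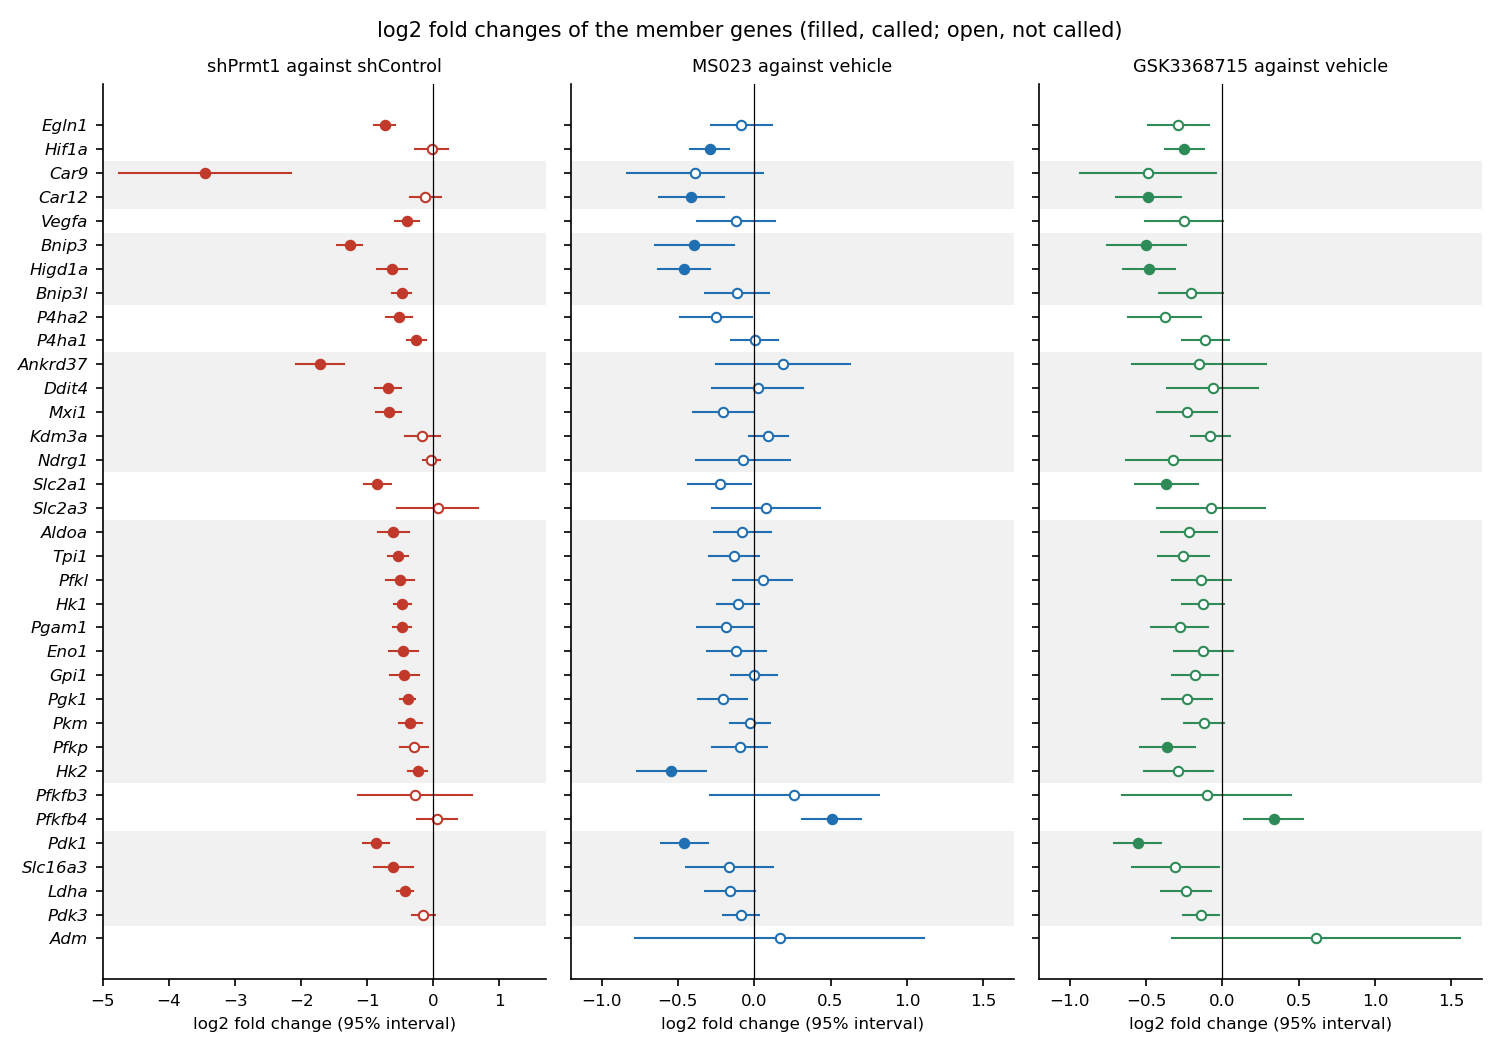
Log2 fold changes of the tested members (points) with 95% intervals (lines) after knockdown and under each inhibitor, where filled points were called and the knockdown panel has a wider axis. Filled points below 0 number 25, 6 and 7, and the only filled point above 0 is Pfkfb4, under both inhibitors.

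Car9 was not called with either inhibitor. Vehicle libraries had 1689, 1255 and 1485 normalized counts, MS023 libraries 787, 1433 and 1243 and GSK3368715 libraries 869, 1115 and 1178. MS023 overlapped vehicle, while all GSK3368715 libraries were below it. The log2 fold change was -0.39 with MS023 (95% interval -0.83 to 0.06, limma adjusted p = 0.178) and -0.49 with GSK3368715 (-0.93 to -0.04, limma adjusted p = 0.157). Without MS023 1, the lowest MS023 library, the MS023 value was -0.13. The knockdown interval was -4.75 to -2.16, from a separately normalized table, and the difference between experiments was not tested. Car12, not called after knockdown, fell here. It had 994, 1056 and 990 normalized counts in vehicle, 662, 800 and 833 in MS023 and 682, 710 and 782 in GSK3368715 libraries, without overlap (-0.41 and -0.48, limma adjusted p = 0.0095 and 0.0124).

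Hif1a mRNA was lower under both compounds. Vehicle libraries had 16544, 16852 and 17885 normalized counts, MS023 libraries 14057, 14221 and 13588 and GSK3368715 libraries 13553, 15433 and 14181. All treated libraries were below all vehicle libraries, with means at 81.6% and 84.2% of vehicle. The log2 fold changes were -0.29 (95% interval -0.42 to -0.16) and -0.25 (-0.38 to -0.12), with limma adjusted p = 0.00417 and 0.0223. The call with GSK3368715 was lost without vehicle 3, GSK3368715 1 or GSK3368715 3. It was also lost with equal upper quartiles, no trend or only the compared groups. Egln1, lower after knockdown, was called with neither compound in the main limma fit (-0.08 and -0.29). With GSK3368715 it was called lower by DESeq2, and by limma without GSK3368715 3. Egln3 had 0 to 4 reads in these 9 libraries and was not tested.

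Pdk1, Higd1a and Bnip3 were called lower in all 3 comparisons with controls. Pdk1 had 9342, 10864 and 9120 normalized counts in vehicle, 6842, 7431 and 7015 in MS023 and 6329, 6833 and 6747 in GSK3368715 libraries (-0.46 and -0.56, limma adjusted p = 0.00106 and 0.00154). Higd1a had 4778, 5147 and 4449, then 3196, 3525 and 3735 and 3394, 3221 and 3661 (-0.46 and -0.48, limma adjusted p = 0.0018 and 0.00487). For both genes the treated and vehicle libraries did not overlap, and no omitted library ended a call. Bnip3 had 12704, 15593 and 12384, then 8946, 11414 and 10641 and 8302, 10173 and 10290 (-0.39 and -0.50, limma adjusted p = 0.0295 and 0.0238). Its calls were less firm. Under both compounds they were lost without vehicle 2, the highest vehicle library, and also without MS023 1 or MS023 3 and without GSK3368715 1. Both calls were also lost with no trend.

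Among glucose uptake and glycolysis genes, Hk2 had 10436, 8237 and 9856 normalized counts in vehicle and 6948, 6308 and 6242 in MS023 libraries (log2 fold change -0.54, SE 0.10, limma adjusted p = 0.00319). With GSK3368715 it had 6854, 7758 and 8736 and was not called (it was when vehicle 2 was left out and by DESeq2). Slc2a1 had 10620, 11924 and 10598 in vehicle, 8396, 10031 and 9935 in MS023 and 7994, 8053 and 9738 in GSK3368715 libraries. All treated libraries were below vehicle, but only the GSK3368715 value was called (-0.37, limma adjusted p = 0.0342, against -0.23 and 0.0933 with MS023), and that call was lost without vehicle 2, vehicle 3, GSK3368715 1 or GSK3368715 2. It was also lost with no trend or only the compared groups. Pfkp fell with GSK3368715, from 3511, 3361 and 3179 to 2443, 2605 and 2782 (log2 fold change -0.36, SE 0.08, limma adjusted p = 0.0208), a call lost without vehicle 1, GSK3368715 1 or GSK3368715 2. With all libraries, limma called the other 9 glycolytic enzymes with neither compound, and its medians over the 11 were -0.11 and -0.22. By edgeR and DESeq2, Pgk1 was called lower with MS023, and by DESeq2, Pgk1, Pgam1 and Tpi1 with GSK3368715. Limma also called Pgk1 lower with MS023 when vehicle 3 or GSK3368715 1 was left out. With GSK3368715 it called Tpi1 lower without vehicle 3 or GSK3368715 3, and Pgam1 without GSK3368715 3.

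Pfkfb4 was the member called higher. It had 638, 653 and 693 normalized counts in vehicle, 997, 865 and 966 in MS023 and 919, 771 and 821 in GSK3368715 libraries, and every treated library was above vehicle. The log2 fold change was 0.51 with MS023 (limma adjusted p = 0.00204), kept in every omission, and 0.34 with GSK3368715 (limma adjusted p = 0.0368), lost in 7 of 9 omissions, that of vehicle 2 among them. The GSK3368715 call was also lost with the replicate block, no filter, equal upper quartiles, no trend or only the compared groups. Its log2 fold change stayed between 0.27 and 0.39. Pgk1, Pgam1, Ldha, Mxi1 and P4ha2 were not called by limma in the main fit although all treated libraries of both compounds were below vehicle, and all but Mxi1 were called lower by DESeq2 with GSK3368715. They had log2 fold changes from -0.25 to -0.16 with MS023 and from -0.38 to -0.23 with GSK3368715. Other limma fits called Pgk1 and Pgam1, as given above, and P4ha2. For P4ha2 these were the filter of 50, equal upper quartiles or omission of GSK3368715 3 with GSK3368715. With MS023 they were only the compared groups or omission of GSK3368715 3. Ankrd37 overlapped in both, with 622, 619 and 607 in vehicle, 517, 923 and 728 in MS023 and 431, 590 and 666 in GSK3368715 libraries. Adm had 4 to 18 reads and was not called.

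Of the 25 genes called lower after knockdown, 4 (16%) were also called lower with MS023, which is 66.7% of the 6 lower there: Pdk1, Higd1a, Bnip3 and Hk2. Under the main scaling these shares are near the 14.1% of all genes called lower with MS023 and the 73.5% of members called lower after knockdown. With equal upper quartiles, 1080 of 13011 genes were called lower with MS023. With GSK3368715 the 4 were Pdk1, Higd1a, Bnip3 and Slc2a1, again 16%, where 4.47% of all genes and 20% of the members were called lower, and 57.1% of the 7 lower there. The hairpin was induced for 3 days and the compounds were given for 48 hours, in separate experiments with no shared library, so these values stand side by side without a test.

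MS023 and GSK3368715 were compared directly, at equal dose and time, in the 35 tested genes. None was called by limma, edgeR or DESeq2, where limma called 0.515% of all genes in either direction, and 5 of the 35 had an unadjusted p under 0.05, a share near the 13.2% of all genes that did. These were Pfkp, Kdm3a, Gpi1, Hk2 and Egln1. Of the 35 differences 32 (91.4%) were below 0, against 48.6% over all genes, with a median of -0.11 against 0.00. With single libraries left out the members' median ran from -0.17 (without MS023 1) to -0.07 (without GSK3368715 1). With equal upper quartiles it was -0.15, against -0.04 for all genes. Pfkp differed by -0.27 (GSK3368715 minus MS023, 95% interval -0.45 to -0.09, limma adjusted p = 0.196) and Hk2 by 0.25 (0.03 to 0.48, 0.318). For Car9 the difference was -0.10 (95% interval -0.55 to 0.35), for Hif1a 0.04 (-0.08 to 0.17) and for Pdk1 -0.10 (-0.25 to 0.06). The intervals bound the differences and do not show that the compounds act alike.

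In some groups, many of the genes called lower after knockdown were lowest in the same library. MS023 1 was the lowest of its group in 23 of the 25, with a median of 83.4% of the vehicle mean against 90.8% and 94.6% in MS023 2 and 3. Vehicle 3 was the lowest vehicle library in 18, while GSK3368715 1, 2 and 3 were lowest in 13, 11 and 1. How often each library was lowest over all genes was not counted, so these counts are no trait of the members. MS023 1 also had the most reads of all libraries, and the part of depth in its low values was not tested. For the GSK3368715 libraries the medians were 79.9%, 81.6% and 91.7% of vehicle, and for the shPrmt1 libraries 73.0%, 62.9% and 72.9% of shControl.

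In the further pathway list, 3 of 52 tested genes were called lower with MS023 and 11 higher, against 14.1% and 13.7% of all genes. The glucose transporter Slc2a6 (0.98), Car13 (0.76), the glycogen branching enzyme Gbe1 (0.59), Hmox1 (0.56) and the pyruvate dehydrogenase phosphatase Pdp2 (0.31) rose. Pfkfb1, of the same enzyme family as Pfkfb4 (-0.88), the pyruvate dehydrogenase complex subunit Dlat (-0.29) and Vhl, which targets HIF-1α for degradation (-0.26), fell. Vhl was the 1 lower of 7 tested HIF subunits and regulators, of which 3 were higher, Arnt (0.16), Hif1an (0.19) and Cited2 (0.21). With GSK3368715 the counts were near the 4.47% lower and 5.16% higher of all genes. The 4 lower were Pfkfb1 (-0.72), the cytokine gene Mif (-0.34), Dlat (-0.28) and Gapdh (-0.22), and the 3 higher Slc2a6 (0.73), Car13 (0.51) and the enolase Eno3 (0.20). Gapdh summed with its copies was not called (-0.20, limma adjusted p = 0.0969).

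The controls of the 2 experiments differed in these genes. Levels were set side by side as RPM, reads scaled to the same total of reads on genes in each library, since the tables were normalized separately. Car9 had 5.37, 3.90 and 3.67 RPM in shControl and 28.3, 20.7 and 24.8 in vehicle libraries. Ndrg1 had 182, 187 and 180 against 477, 379 and 408, and Vegfa 154, 152 and 161 against 344, 243 and 321. These 3 were higher in every vehicle library, while Hif1a overlapped, at 275, 300 and 270 and 278, 278 and 299. Every vehicle library was above every shControl library in 23 of 34 genes (67.6%), against 38.9% of the 11471 genes that passed the filter in both experiments. Pgam1 was the one member lower in every vehicle library, which held for 21.4% of all genes. The experiments differ in cells and handling, which cannot be told apart, and no test was made.

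**Figure D5:**
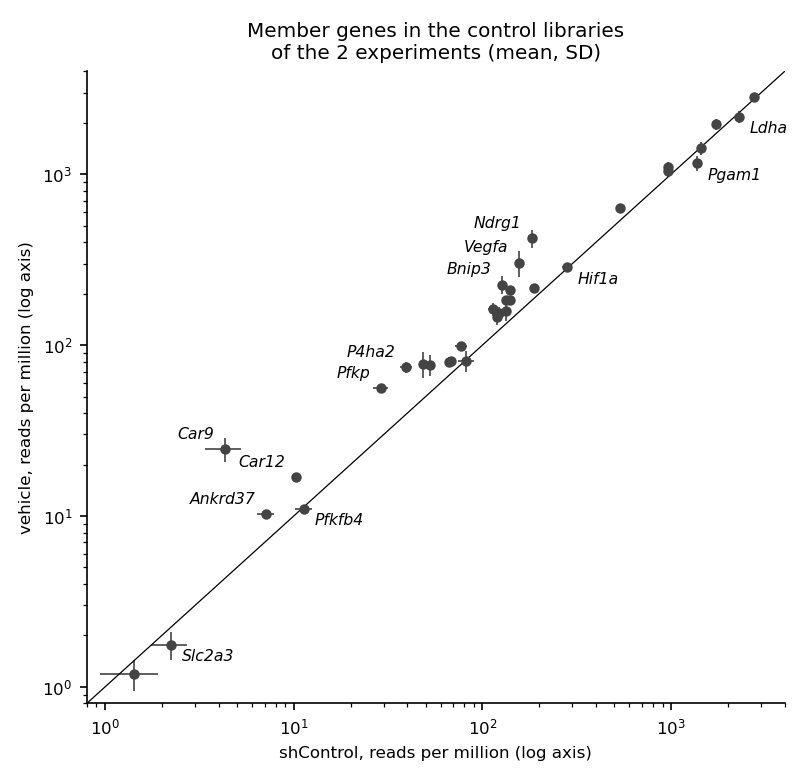
Mean RPM of the 34 members tested in the knockdown experiment, in vehicle against shControl libraries on log axes, with SD bars (n = 3) and a diagonal at equal levels. Car9, Ndrg1 and Vegfa lie above the diagonal and Hif1a lies on it.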

How the data were processed

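The authors sequenced mRNA of CT26 cells in paired-end libraries and, per the labels, quantified them with Salmon 1.4.0 on mm10 and DESeq2 (version not given in the sources used here). The deposited signal is the gene count after division by a DESeq2 size factor, in a separate table for each experiment. Multiplied back, 100% of values came out as whole reads (tolerance 0.1 read). Deposited tables of fold changes and p-values were not used.

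The log2(normalized count + 1) was tested two-sided with limma 3.58.1 (eBayes with trend, R 4.3.3) and Benjamini-Hochberg adjustment over all genes that had 10 normalized counts or more in 3 libraries or more. Fold changes of genes with few reads are understated on this scale. The knockdown fit held 6 libraries and the inhibitor fit 9. Other settings were pseudocounts of 0.5 and 5, filters of none and 50, scaling to equal upper quartiles or totals, no trend, a replicate block, fits of the compared groups alone, edgeR 4.0.16 and DESeq2 1.42.0 on recovered reads, and omission of each library. Sums with near-identical copies (blastn 2.17.0, 95% identity over 30% of the transcript) were added after seeing the data. Library values are given for Prmt1, Car9, Hif1a and up to 10 called members per comparison by size of change, with a mean of 50 normalized counts or more, and up to 8 called pathway genes are named. Genes named beyond this rule, among them Gapdh after knockdown, the members that were not called and the control levels, were chosen after their values were seen. Members and lists were chosen with earlier results of these data known. Scripts were tested on simulated data. No fold is given for genes at 3 reads or fewer in both groups, a limit for counting error only.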

Additional observations from a re-analysis of the deposited data

Results flagged for a closer look

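Kdm3a, a histone demethylase gene, was called with neither inhibitor, but every MS023 library lay above and every GSK3368715 library below all vehicle libraries. Vehicle libraries had 5874, 5963 and 5911 normalized counts, MS023 libraries 6242, 6591 and 6083 and GSK3368715 libraries 5784, 5857 and 5189. The log2 fold change was 0.0912 with MS023 and -0.08 with GSK3368715. With single libraries left out it ran from 0.06 to 0.12 and from -0.11 to -0.02, and neither was called. The direct comparison of the compounds was not called either (-0.17, 95% interval -0.30 to -0.04, limma adjusted p = 0.246).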

How the results depend on the processing

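The number of members called ran from 20 (no trend) to 26 after knockdown, against 25 reported, and from 6 to 8 with MS023, against 7, over the settings that keep all libraries. With GSK3368715 it was 8, and it moved to 4 without the trend, 15 by DESeq2 and 5 with only the compared groups in the fit. With single libraries left out it ran from 17 to 28 after knockdown, from 6 to 8 with MS023 and from 3 to 10 with GSK3368715, and it was 0 throughout between the compounds; the cause was not tested. Of the members called, 17 of 25, 6 of 7 and 3 of 8 were called in every such fit. No direction reversed among the members called. With the replicate block 26, 7, 7 and 0 members were called. The replicate numbers were not taken as pairs, since same-numbered libraries correlated by 0.061 to 0.116 in the knockdown and by -0.102 to 0.113 in the inhibitor experiment, although 6 of 6 knockdown libraries correlated best with their own number (2 of 9 inhibitor libraries). Over all genes, the block raised the knockdown calls from 823 lower and 861 higher to 1325 and 1346. Scaling to equal totals turned the knockdown split to 666 lower and 1082 higher, and the MS023 split from 1841 lower and 1784 higher to 1509 and 2200, or to 1080 and 2084 with equal upper quartiles, while the members called numbered 24 after knockdown and 7 with MS023 under each of these scalings.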
